A study of Homo sapiens with 6 samples.

Results

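The AP-1 and EGR immediate early factors are 10 transcription factor genes, namely the FOS family (FOS, FOSB, FOSL1 and FOSL2), the JUN family (JUN, JUNB and JUND), ATF3, EGR1 and EGR2. They were found by gene name in a deposited list of 33981 genes, and all 10 were present. The list comes from bulk mRNA sequencing of THP-1, an established monocytic line of acute myeloid leukemia (AML), which was infected with a lentivirus carrying either scrambled shRNA (n = 3) or shRNA against NFIC (n = 3). Nuclear factor I-C (NFIC) is a DNA-binding protein of the NFI family. Both groups carried a GFP vector, were infected with the help of retronectin and were sorted for GFP 4 days later, so all RNA came from cells that held the vector. The control is a scrambled shRNA in the sample labels, whereas the study's methods call it a GFP only vector. The knockdown rests on 1 cell line and, by a figure legend of the study, on 1 NFIC shRNA. Effects particular to that shRNA cannot be told apart from those of NFIC loss. Nothing in the labels says whether the 3 samples of a group were separate cultures. The p-values thus measure the spread between these samples, which may be technical.

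AP-1 is a dimer that binds DNA through paired basic leucine zippers. FOS proteins cannot pair with each other and bind DNA well only with a JUN partner, whereas JUN proteins can pair among themselves, and ATF3 pairs with JUN proteins or with itself. EGR1 and EGR2 are zinc finger proteins that bind GC-rich sites, and NAB proteins hold them in check. In resting cells most of these genes are low, and serum, growth factors or stress switch them on for a short time through MAP kinases, serum response factor (SRF) with its ETS partners, and CREB. In monocytic cells AP-1 and EGR1 are known for their part in macrophage differentiation and inflammatory gene expression.

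Serum response factor binds the CArG box, and the members fall into those with and without such letters close to their start. The 500 bases before each RefSeq start were read from GRCh38 for the 9 members with an entry in the RefSeq promoter table (12 starts), and FOSL1 had none. CArG boxes were found before 4 members, with 5 before EGR1, 2 before a start of EGR2, 1 before FOS and 1 before FOSB. Of all 35116 RefSeq starts, 2.43% had at least 1 CArG box in these 500 bases. None was found before JUN, JUNB, JUND, FOSL2 or ATF3, which says only that these letters are not in the window. The stretches below are shown because they hold the letters through which serum response factor and CREB act on this class of genes. Capitals mark CArG boxes, ETS letters (CCGGAA on either strand) or CRE letters (TGACGTCA, the site of CREB and ATF proteins), and each sequence runs 5′ to 3′ on the strand of its gene.

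The upstream cluster of EGR1 (chr5:138465042-138465134, plus strand, GRCh38) lies between -437 and -345 from the start and holds 3 CArG boxes, with ETS letters before the first box and again between the first and the next.
EGR1 upstream cluster: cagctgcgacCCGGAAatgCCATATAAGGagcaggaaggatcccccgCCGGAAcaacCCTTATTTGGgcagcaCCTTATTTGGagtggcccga
The proximal pair of EGR1 (chr5:138465364-138465415, plus strand) lies between -115 and -64.
EGR1 proximal pair: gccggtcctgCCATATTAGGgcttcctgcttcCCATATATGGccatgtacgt
The single box of FOS (chr14:75278504-75278533, plus strand) starts at -314.
FOS: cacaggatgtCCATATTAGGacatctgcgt
The box of FOSB (chr19:45467712-45467741, plus strand) starts at -274.
FOSB: cggccgagctCCTTATATGGctaattgcgt
The nearer box of EGR2 (chr10:62816418-62816447, minus strand) starts at -71.
EGR2: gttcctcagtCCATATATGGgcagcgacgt
The CRE of JUND (chr19:18281805-18281832, minus strand) starts at -200.
JUND: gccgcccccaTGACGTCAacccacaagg

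The letters of the FOS box (CCATATTAGG) are those of the EGR1 box at -105, and the box of EGR2 at -71 (CCATATATGG) has the letters of the EGR1 box at -83. CRE letters were also found before FOSB at -325 and before the downstream start of ATF3 at -497, and 1.98% of all starts had them in 500 bases. ETS letters stood before EGR1, EGR2 and FOSB, beside 20.3% of all starts. AP-1 letters (TGACTCA or its complement TGAGTCA) were found in 7.36% of all upstream windows and, among the members, only before the far upstream start of EGR2, at -421. In the RefSeq windows, which run from 250 bases before to 50 after the start, FOSL2 had them at 4 bases into the transcript, beside 4.95% of all such windows. NFI letters (TTGGCA on either strand) were found before the RefSeq start of FOSL2 at -361 and before 2 starts of EGR2 at -88 and -499. Of all starts 20.5% had them. In the GENCODE annotation the FOSL2 letters lie inside an exon of FOSL2, so they precede its RefSeq start but not the whole gene. The full NFI palindrome (0.065% of starts) and the EGR letters GCGTGGGCG (1.07%) were found before no member. These letters are matches to a pattern, and binding was not measured.

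**Figure D1:**
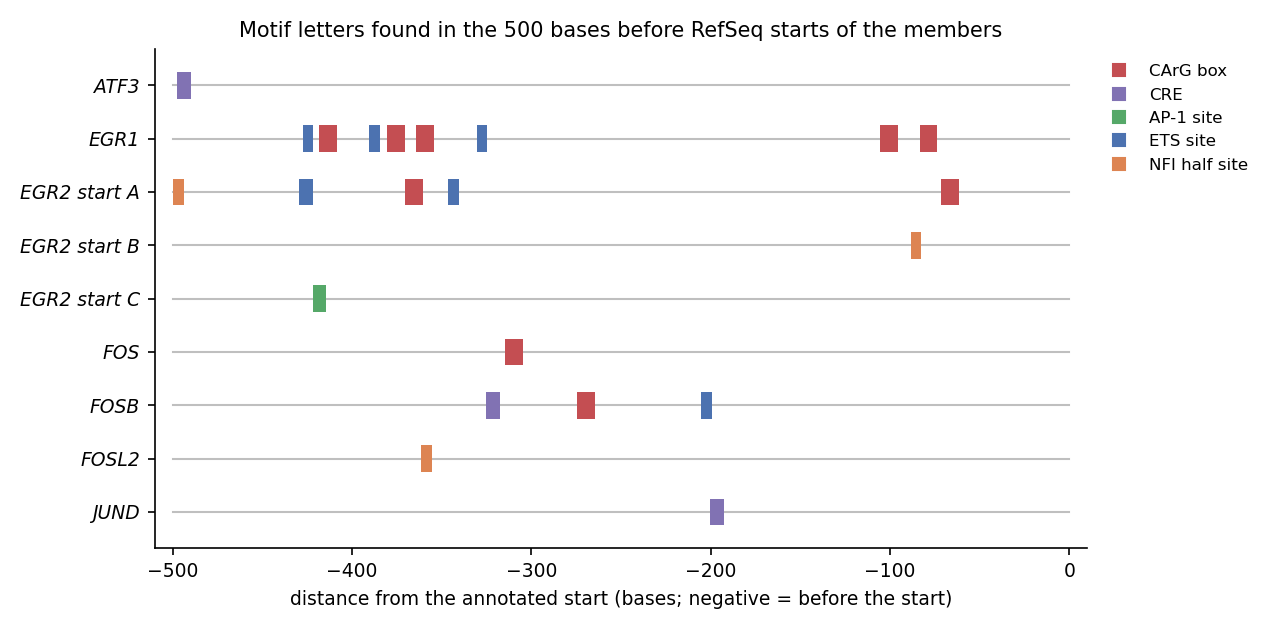
Positions of motif letters in the 500 bases before RefSeq starts of the members, with the distance from the start in bases on the x axis and 1 row for each of the 9 starts that held any of these letters. Coloured blocks mark CArG boxes, CRE, AP-1, ETS and NFI letters. EGR1 carries 5 of the 9 CArG boxes found, and EGR2 appears once for each of its starts.

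The knockdown itself was visible in the target. NFIC had 911, 1019 and 904 counts in the scrambled samples and 399, 518 and 493 counts with NFIC shRNA, a log2 fold change of -0.99 (SE 0.072, adjusted p = 3.73e-09 from edgeR). Total counts were between 20369543 and 24809720 per sample, so that 3 counts, taken as the smallest amount that can be detected, equal 0.122 to 0.146 CPM, the unit of counts scaled to the library total. That limit reflects counting error alone, and the reads carried no molecular identifiers that would make them independent molecules. CPM values were scaled by edgeR's TMM factors. Differences were tested on the counts of the 19182 genes that passed edgeR's filter, with the quasi-likelihood test and Benjamini-Hochberg adjustment over all of them, and a gene was called at an adjusted p under 0.05. An exact permutation test of 3 samples against 3 cannot give a two-sided p under 0.1. The comparison moved much of the transcriptome, with 29.6% of the tested genes called higher and 30.3% called lower. Of the monocytic and myeloid identity genes 12 of 12 passed the filter, among them LYZ (lysozyme) at 572 CPM and CD68 at 261 CPM in the scrambled samples. Of the 7 other-lineage markers among the listed genes 3 passed the filter, their summed level was 12.5 to 14.1 CPM with scrambled and 4.85 to 6.25 CPM with NFIC shRNA, and the T cell marker CD3D, the globin gene HBB and the globin gene HBA1 had group means between 0 and 0.043 CPM.

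Among the members, 5 of the 9 tested genes rose after NFIC KD and none fell. These were FOS, which was 1.77 fold higher in mean CPM, and EGR1, JUNB, JUN and FOSL2, which were 1.36, 1.25, 1.22 and 1.18 fold higher. The tested members not called were FOSL1, JUND, ATF3 and FOSB, and EGR2 did not pass the filter on low counts. The 5 of 9 stand beside the 29.6% of all tested genes called higher, and the 0 of 9 beside the 30.3% called lower. The median log2 fold change of the 9 members was 0.24, and that of all 19182 tested genes was -0.011. For 5 of the 9 tested members the lowest sample of the higher group lay above the highest sample of the other group, a separation that 65.2% of all tested genes showed. An absolute log2 fold change above 1, which 11.9% of tested genes reached together with an adjusted p under 0.05, was reached by 0 members. In bulk RNA a gene that is higher in every cell and a gene that is on in more of the cells cannot be told apart.

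**Figure D2:**
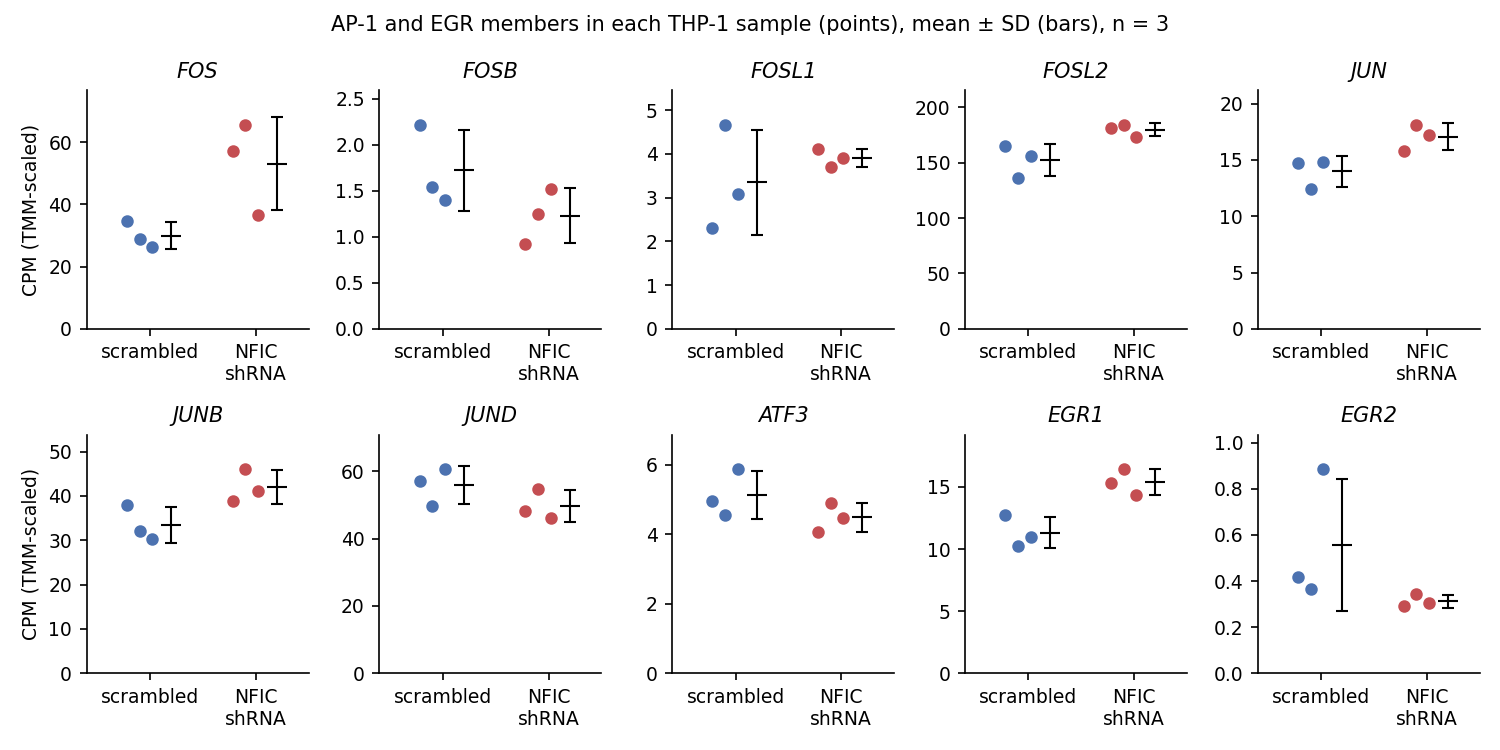
TMM-scaled CPM of each of the 10 members (y axis, linear from 0) in the 3 scrambled samples (blue) and the 3 NFIC shRNA samples (red), with replicates 1 to 3 from left to right and the mean ± SD as black bars. FOS, FOSL2, JUN, JUNB and EGR1 have all NFIC shRNA samples above all scrambled samples, and in FOS the last NFIC shRNA sample, at 36.6 CPM, sits far below the other two.

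FOS encodes the best known short-lived partner of JUN and had the largest log2 fold change of the tested members. FOS (ENSG00000170345, chromosome 14 of GRCh38, 75278826 to 75282230) had 753, 708 and 563 counts in the scrambled samples, which is 34.8, 28.8 and 26.3 CPM. With NFIC shRNA it had 1176, 1523 and 844 counts, which is 57.0, 65.6 and 36.6 CPM. All 3 knockdown samples lay above all 3 controls, but the third knockdown sample exceeded the highest control by little, and the spread within the knockdown group was wide. The mean went from 30.0 ± 4.38 to 53.1 ± 14.9 CPM (SD, n = 3), 1.77 fold. The log2 fold change was 0.83 (SE 0.21, 95% CI 0.34 to 1.31, adjusted p = 0.00939 from edgeR). The call was lost in 3 of 16 alternative fits. It was lost without the second scrambled sample (edgeR adjusted p = 0.0893) and without the filter on low counts (edgeR adjusted p = 0.108). It was also lost with samples blocked by the number in their titles (edgeR adjusted p = 0.0737). The log2 fold change was 0.79, 0.83 and 0.80 in turn. That block set the third scrambled sample (title C4) with the second NFIC shRNA sample (title N2), although their numbers differ.

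FOSL2 encodes FRA2, a FOS protein without the strong transactivation domain of FOS, and rose by a small amount. FOSL2 (ENSG00000075426, chromosome 2, 28392448 to 28417317) was at 165, 136 and 156 CPM in the scrambled samples and at 181, 184 and 173 CPM with NFIC shRNA. The groups did not overlap, and the second scrambled sample was the lowest. The mean went from 152 ± 14.5 to 179 ± 5.87 CPM (SD, n = 3), a log2 fold change of 0.24 (SE 0.062, adjusted p = 0.00341 from edgeR).

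FOSL1 and FOSB, the other FOS genes, were lower than FOS and FOSL2. Their scrambled means per length (FPKM) lay above those of 31.6% and 8.02% of the tested genes, so only FOSB was near the lower end. FOSL1 (ENSG00000175592, chromosome 11, 65892049 to 65900573), which encodes FRA1, had 50, 115 and 66 counts with scrambled and 85, 86 and 90 counts with NFIC shRNA. The 3 knockdown samples lay inside the range of the controls, whose spread came mostly from the high count of the second sample. Its log2 fold change was 0.20 (95% CI -0.23 to 0.64, adjusted p = 0.410 from edgeR). This value depended on single controls, since without the second scrambled sample it was 0.53 and called (edgeR adjusted p = 0.0270), and without the first it was -0.0069 (edgeR adjusted p = 0.979). FOSB (ENSG00000125740, chromosome 19, 45467995 to 45475179) had 48, 38 and 30 counts against 19, 29 and 35 counts. The groups overlapped, and the log2 fold change of -0.47 (95% CI -1.03 to 0.087, adjusted p = 0.135 from edgeR) was not called. It was -0.26 without the first scrambled sample and -0.31 without the first NFIC shRNA sample.

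JUN and JUNB, the inducible JUN genes, both rose. JUNB, which can act as a weaker partner or as an antagonist of JUN, lies on chromosome 19 (ENSG00000171223, 12791486 to 12793315) and was at 38.0, 32.2 and 30.3 CPM in the scrambled samples and at 38.8, 46.1 and 41.0 CPM with NFIC shRNA. The groups did not overlap, although the first sample of each lay less than 1 CPM apart. The log2 fold change was 0.33 (SE 0.087, adjusted p = 0.00384 from edgeR). In the annotation 259 exonic bases of JUNB are shared with HOOK2 on the opposite strand, and the library kit is not described as keeping strand, so reads there could belong to either gene. HOOK2 itself was at 19.3 to 24.9 CPM over the 6 samples and had a log2 fold change of -0.086 (adjusted p = 0.425 from edgeR).

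JUN (ENSG00000177606, chromosome 1, 58776845 to 58784048), the namesake of the family and the substrate of JNK kinases, was at 14.7, 12.4 and 14.9 CPM with scrambled and at 15.8, 18.1 and 17.2 CPM with NFIC shRNA. The lowest knockdown sample lay just above the highest control. Its log2 fold change was 0.29 (SE 0.097, 95% CI 0.085 to 0.49, adjusted p = 0.0161 from edgeR). The edgeR call did not hold without the second scrambled sample (adjusted p = 0.0962), without the second NFIC shRNA sample (adjusted p = 0.0590) or with upper-quartile normalization (adjusted p = 0.0512), where its log2 fold change was 0.20, 0.25 and 0.23 in turn.

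JUND, which is expressed more evenly than its relatives and is often linked to growth restraint, had a value of the other sign. JUND (ENSG00000130522, chromosome 19, 18279694 to 18281622) was at 57.2, 49.6 and 60.8 CPM with scrambled and at 48.2, 54.9 and 46.0 CPM with NFIC shRNA. The groups overlapped, with the second control below the second knockdown sample. The log2 fold change of -0.17 (95% CI -0.34 to 0.0035, adjusted p = 0.0846 from edgeR) was not called. It was called lower in 6 of the 16 alternative fits, among them those without the second scrambled sample (-0.25, edgeR adjusted p = 0.0115), without the second NFIC shRNA sample (-0.24, edgeR adjusted p = 0.0172) and with upper-quartile normalization (-0.22, edgeR adjusted p = 0.0324). Without the filter on low counts (-0.16, edgeR adjusted p = 0.0421) JUND was called at nearly the same fold change. The same held with samples blocked by title number, C4 again set with N2 (-0.17, edgeR adjusted p = 0.0118).

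ATF3, a stress-induced factor that often represses as a homodimer, was not called. ATF3 (ENSG00000162772, chromosome 1, 212565334 to 212620777) had 107, 112 and 126 counts with scrambled and 84, 114 and 103 counts with NFIC shRNA. The log2 fold change was -0.19 (95% CI -0.50 to 0.13, adjusted p = 0.295 from edgeR), and it was called under none of the 16 alternative settings. Without the third scrambled sample, the highest control, the log2 fold change was -0.083.

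EGR1, the zinc finger factor most tied to monocyte differentiation among the members, was higher in all 3 knockdown samples. EGR1 (ENSG00000120738, chromosome 5, 138465479 to 138469303) had 275, 253 and 235 counts with scrambled and 316, 382 and 332 counts with NFIC shRNA, which is 12.7, 10.3 and 11.0 CPM against 15.3, 16.5 and 14.4 CPM. No knockdown sample came below a control, and the spread within both groups was small. The mean was 1.36 fold higher, with a log2 fold change of 0.45 (SE 0.10, 95% CI 0.23 to 0.66, adjusted p = 0.00115 from edgeR). EGR1, JUNB and FOSL2 were called higher under all 16 alternative settings of the fit, FOS under 13 and JUN under 12.

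EGR2 (ENSG00000122877, chromosome 10, 62811996 to 62819167), a relative of EGR1 known in macrophages, was barely detected. It had 9, 9 and 19 counts with scrambled and 6, 8 and 7 counts with NFIC shRNA, a group mean of 12.3 ± 5.77 against 7.0 ± 1.0 counts (SD, n = 3). DESeq2, run without edgeR's filter on low counts, gave it an adjusted p of 0.339, and edgeR without that filter gave 0.230. In CPM the knockdown samples (0.291 to 0.345) lay below the controls (0.366 to 0.887), but by as little as 1 count in the raw values, so no difference in EGR2 was detectable at this depth.

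**Figure D3:**
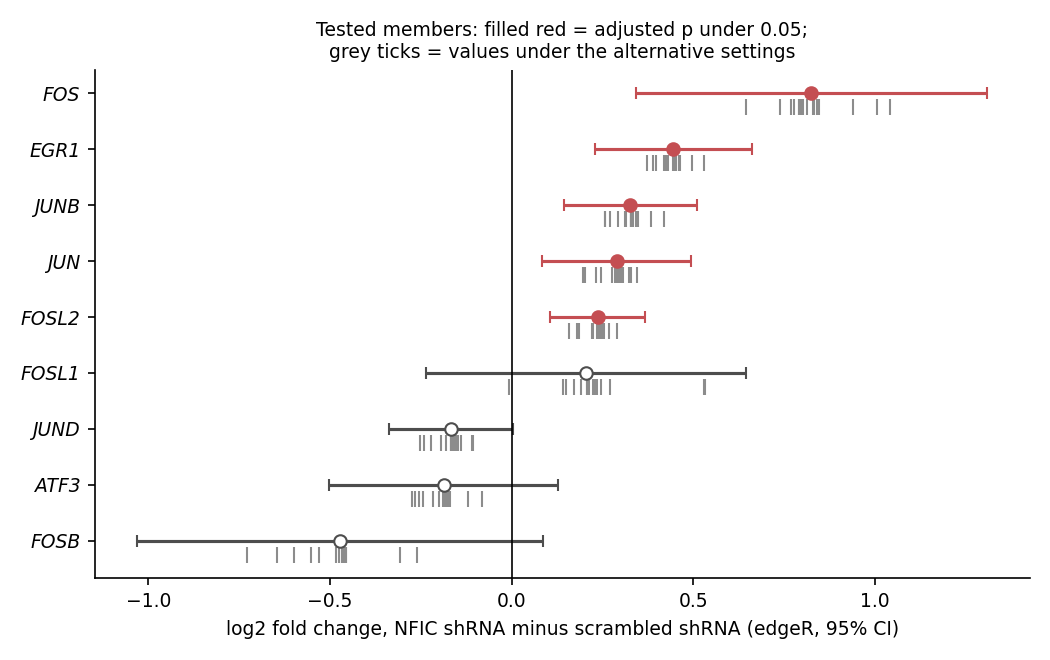
Log2 fold change of the 9 tested members, NFIC shRNA minus scrambled shRNA, from edgeR (x axis), with the 95% confidence interval as bars and the values under the alternative settings as grey ticks. The 5 filled points (FOS, EGR1, JUNB, JUN and FOSL2) passed the adjusted p threshold, and the interval of JUND ends at 0.0035.

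The second scrambled sample recurs in these results. The labels name it C3, a name that the paper's text does not list among its controls, and the labels were followed here. It had the lowest CPM of the 3 controls for FOSL2, JUN, JUND, ATF3, EGR1 and EGR2 and the highest for FOSL1, and it was the most deeply sequenced library with 24809720 counts. Over all genes it stood apart from the other two controls (chi-square per degree of freedom 5.07 and 4.29, beside 1.99 between those controls), and the third NFIC shRNA sample, N3, stood apart from its group in the same way (4.89 and 7.91, beside 3.08). Their part in the results was examined only by leaving them out. When the second scrambled sample and the third NFIC shRNA sample were both left out, 5 members were called higher and 2 lower. FOS was among those called higher, with a log2 fold change of 1.01 (edgeR adjusted p = 3.96e-06), beside 0.83 with all samples. JUN was then no longer called (0.20, edgeR adjusted p = 0.101), FOSL1 was called higher (0.53, edgeR adjusted p = 0.0280), and FOSB (-0.73, edgeR adjusted p = 0.0498) and JUND (-0.19, edgeR adjusted p = 0.00910) were called lower.

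Levels of different genes can be compared only per length, for which the deposited FPKM values were used. In the scrambled samples JUND was highest with 28.6 ± 2.94 FPKM (SD, n = 3), a level above that of 90.9% of the tested genes. FOSL2 followed with 21.0 ± 1.98 FPKM, JUNB with 18.1 ± 2.13 FPKM, FOS with 9.29 ± 1.33 FPKM, JUN with 4.25 ± 0.422 FPKM and EGR1 with 3.57 ± 0.386 FPKM. FOSL1 (1.76 ± 0.632 FPKM), ATF3 (1.25 ± 0.170 FPKM), FOSB (0.306 ± 0.0767 FPKM) and EGR2 (0.149 ± 0.0775 FPKM) closed the order. THP-1 cells without the knockdown thus held chiefly JUND, FOSL2 and JUNB transcripts, and the classical inducible genes FOS, JUN and EGR1 came after them. The ranges over samples overlapped between FOSL2 and JUNB, between JUN and EGR1 and between FOSL1 and ATF3, so these neighbours did not differ beyond their spread. With NFIC shRNA the order of the 10 means was the same, but JUND at 25.7 ± 2.33 FPKM, FOSL2 at 25.0 ± 0.687 FPKM and JUNB at 22.9 ± 2.07 FPKM now had ranges that overlapped from each to the next.

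The summed FPKM of the 4 FOS genes was 35.0, 30.5 and 31.6 with scrambled and 45.2, 48.4 and 38.2 with NFIC shRNA, 1.36 fold higher on average. The groups did not overlap, and the exact two-sided permutation p was 0.1, the smallest possible. The summed FPKM of the 3 JUN genes was 54.1, 46.5 and 52.1 with scrambled and 50.6, 59.0 and 51.9 with NFIC shRNA, and those ranges overlapped (exact permutation p = 0.6). Within the JUN family no member's share overlapped between the groups. These shares are parts of one sum, so a fall in any share raises the others and they are not separate results. In CPM 65.2% of all tested genes separated between the groups, whereas JUND itself overlapped and was not called. JUND made up 53.9%, 54.6% and 59.9% of the JUN family FPKM with scrambled and 49.0%, 48.1% and 46.3% with NFIC shRNA. JUNB went from 35.5% ± 3.55 to 42.5% ± 0.971 and JUN from 8.33% ± 0.307 to 9.72% ± 0.474 (SD, n = 3), each with an exact permutation p of 0.1. In the FOS family FOSL2 remained the most abundant member in every sample. Its share was 64.9% ± 3.24 with scrambled and 57.4% ± 5.52 with NFIC shRNA (SD, n = 3). That of FOS was 28.6% ± 2.51 and 37.3% ± 6.34 (SD, n = 3). The groups overlapped for both (exact permutation p = 0.2) and for FOSL1 (exact permutation p = 0.8). The small share of FOSB did not overlap, at 0.939% ± 0.170 and 0.516% ± 0.183 (SD, n = 3, exact permutation p = 0.1), but rested on few counts.

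**Figure D4:**
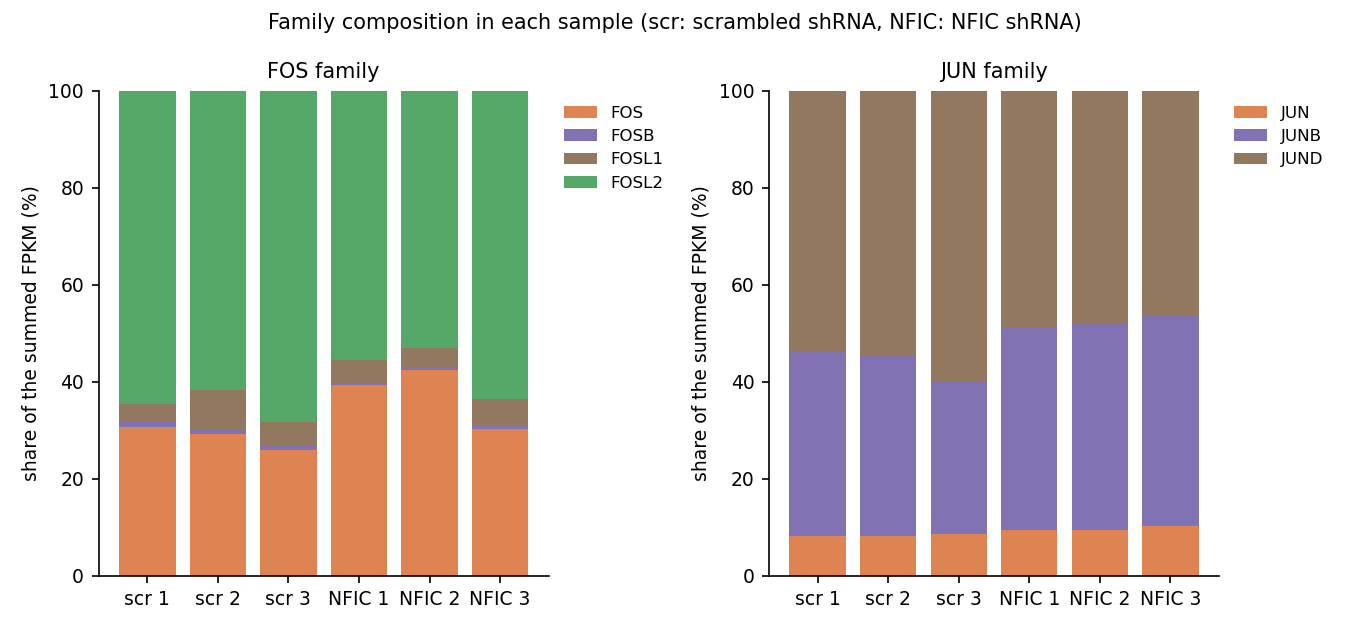
Share of each gene in the summed FPKM of the FOS family (left) and of the JUN family (right), in percent on the y axis, with 1 bar per sample. JUND is at 53.9% to 59.9% of the JUN family in the 3 scrambled samples and at 46.3% to 49.0% in the 3 NFIC shRNA samples, and FOSL2 is the largest part of the FOS family in all 6.

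Over the 6 samples the log2 CPM of EGR1 followed that of FOSL2 (Pearson r = 0.96), JUNB (r = 0.93) and FOS (r = 0.92). After the group means were taken out, r was 0.88, 0.79 and 0.74. These are descriptions over 6 points that share library and depth, and the difference between the groups carries part of them. By the same measure the genes most like EGR1 among 17003 genes of at least 1 CPM were OLIG1, CORO7-PAM16 and LGALS3 (r = 0.997, 0.996 and 0.995), those most like FOS were AATK, AL603839.4 and ABTB1 (r = 0.996, 0.994 and 0.992), and those like JUN included AC018904.1 and AC008105.3 (r = 0.9995 and 0.991). A correlation over 0.95 was found with 351 genes for EGR1, 78 for FOS and 90 for JUN.

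The genes that regulate or partner the members were then counted, by lists written from general knowledge. Earlier results of these data were known when the lists were written, so their shares are descriptions and not independent tests. Among 11 other AP-1 type and MAF bZIP factors 3 rose and 1 fell, with a median log2 fold change of -0.046. These are 27.3% and 9.09%, beside 29.6% and 30.3% of all tested genes, so the share that rose was near that of all genes. BATF, which pairs with JUN proteins in immune cells, rose by 0.64 on the log2 scale (adjusted p = 0.00335 from edgeR), and ATF7 by 0.36. BATF3, which has the same kind of zipper, fell by 0.75 on the log2 scale, from 6.46 to 3.86 CPM. The EGR corepressors moved in opposite directions, with NAB1 at 0.28 and NAB2 at -0.87. NAB2, itself a known EGR1 target that feeds back on EGR1, was at 26.8, 24.9 and 27.0 CPM with scrambled and at 13.7, 15.0 and 14.2 CPM with NFIC shRNA (edgeR adjusted p = 7.29e-08). These groups were far apart, in the opposite direction to EGR1. EGR3 and EGR4 were too low to be tested.

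Upstream of the members, 14 of 30 genes of the MAP kinase cascade rose and 5 fell, beside the 29.6% and 30.3% of all tested genes, and their median was 0.13. MAP2K6 and MAP2K4, kinases of the p38 and JNK branches, had the largest increases (0.76 and 0.73). MAP2K3, the other p38 kinase kinase, fell by 1.02 on the log2 scale, from 18.0 to 8.86 CPM, and RPS6KA3 (the ERK-activated kinase RSK2) by 0.76. In the list of SRF, ternary complex and CREB factors 3 of 12 rose and 4 fell. These shares (25% and 33.3%) were near those of all tested genes. SRF, whose known site is the CArG box, had a log2 fold change of -0.85 (SE 0.056, adjusted p = 1.21e-09 from edgeR). It was at 115, 122 and 117 CPM with scrambled and at 66.2, 68.7 and 61.8 CPM with NFIC shRNA. Its 2 groups were widely separated. Of the CREB coactivators CRTC3 (0.58) and CRTC2 (0.38) rose and CRTC1 (-0.60) fell.

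Other immediate early genes did not move as 1 block. Of 31 tested, 10 rose and 8 fell, near the shares of all tested genes, and the median was 0.12. BTG2, an antiproliferative gene, was at 10.4, 10.2 and 10.5 CPM with scrambled and at 20.6, 22.0 and 22.3 CPM with NFIC shRNA, a log2 fold change of 1.06, and KLF2, which restrains monocyte activation, rose by 0.75 on the log2 scale. ZFP36L1, a destabilizer of AU-rich messages, fell by 1.42 on the log2 scale and ERRFI1, an inhibitor of the EGF receptor, by 0.84. Among genes that act on the turnover of AP-1 transcripts and proteins 4 of 11 rose and 2 fell. These are 36.4% and 18.2%, beside 29.6% and 30.3% of all tested genes. FBXW7, the ubiquitin ligase component that recognizes JUN, rose by 0.63 on the log2 scale and ZFP36 (tristetraprolin) by 0.31, whereas ZFP36L1 and ZFP36L2 (-0.50) were the genes that fell.

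Downstream, 10 of 19 tested textbook AP-1 or EGR target genes rose and 6 fell (52.6% and 31.6%), beside 29.6% and 30.3% of all tested genes, with a median of 0.22. The share that fell was thus near that of all genes. ICAM1, an adhesion molecule, was at 15.3, 8.61 and 13.5 CPM with scrambled and at 37.6, 37.9 and 42.0 CPM with NFIC shRNA (log2 fold change 1.66, edgeR adjusted p = 3.49e-06), and IL1B, the cytokine interleukin 1 beta, rose by 1.37 on the log2 scale from 0.905 CPM. CCND1 (cyclin D1) fell by 1.24 and VEGFA by 1.20 on the log2 scale, the latter from 247 to 108 CPM. Several of these genes are also known targets of other factors, such as NF-kappaB for ICAM1 and IL1B and hypoxia-inducible factor for VEGFA. Among 11 stress response partners of ATF3 4 rose and 5 fell (36.4% and 45.5%), beside 29.6% and 30.3% of all tested genes. DDIT3 (CHOP) was at 0.46 and PPP1R15A at 0.41, against DDIT4 at -1.22 and CHAC1 at -0.88.

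Cells were sorted in the cold before lysis in both groups, and 10 heat shock genes, which respond to handling, were counted in the same way. Of these 5 rose and 3 fell, beside the 29.6% and 30.3% of all tested genes, and the median was 0.14. The share that fell was near that of all genes. DNAJB1, an HSP40 cochaperone, was at 60.4, 55.6 and 55.1 CPM with scrambled and at 82.2, 81.4 and 86.7 CPM with NFIC shRNA, and BAG3 rose by 0.35 on the log2 scale. HSPB1 (HSP27) fell by 1.01 on the log2 scale and HSPE1 by 0.53. DNAJB1 and BAG3 thus moved in the direction of FOS, JUN, JUNB and EGR1, and HSPB1 and HSPE1 in the other. Their part in the members' values was not tested. Among the 12 monocytic and myeloid identity genes, 3 rose and 6 fell (25% and 50%, against the same shares of all genes), with ITGAM (CD11b) at 0.99 and LYZ at 0.72 and with CD68 at -1.01 and CD33 at -0.97.

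**Figure D5:**
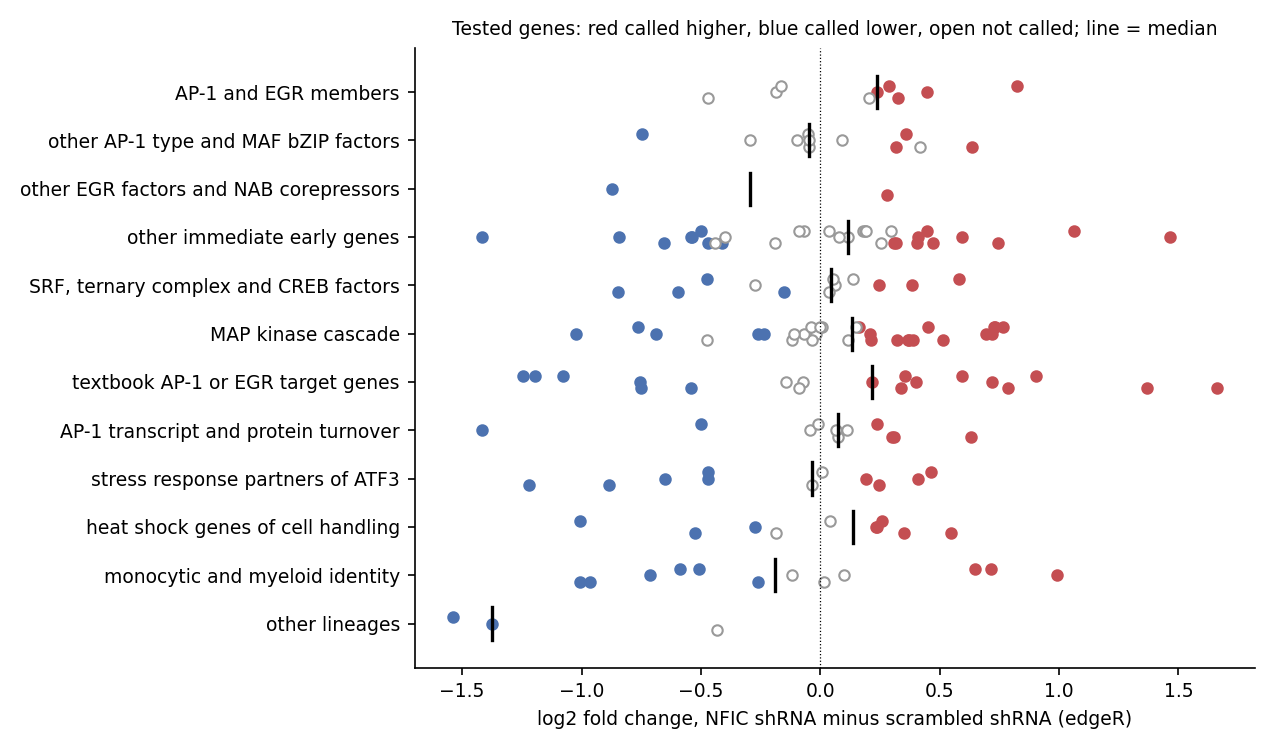
Log2 fold change (x axis, edgeR, NFIC shRNA minus scrambled shRNA) of every tested gene in the 10 members and in 11 companion lists (rows), with red for called higher, blue for called lower, open circles for not called and a black line at the median. Called genes lie on both sides of 0 in every companion list but the other lineages, where 2 of 3 tested genes fell.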

How the data were processed

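The authors trimmed the paired reads (Trim Galore, FastQC), mapped them to GRCh38 with STAR and counted them per gene with featureCounts on Ensembl release 96, as the study's methods and the submitters' processing notes state. Tool versions are not given in the sources used here. The deposited table holds the raw count per gene and sample, a normalized count, FPKM values that the authors made from normalized counts and gene length, and that gene length. The authors' own comparison (mean, fold change, standard error, statistic and p-values) and the normalized counts were not used.

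The raw counts were tested with edgeR 4.0.16 (R 4.3.3, TMM, filterByExpr, robust quasi-likelihood fit, no replicate block) over all 19182 genes that passed the filter. The standard error is the size of the log2 fold change divided by the square root of F. The main edgeR fit, the DESeq2 fit and the limma fit were tried on simulated counts first. The fits with other normalizations, filters, sample sets or replicate blocks were not. Alternatives used DESeq2 1.42.0, limma 3.58.1, other normalizations and filters, fewer samples and replicate blocks. Depth was 20369543 to 24809720 counts per sample.

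The members and all gene lists were chosen with earlier results of these data known. Named genes are the 10 members, NFIC, up to 2 called genes with the largest and 2 with the smallest log2 fold change per list at a mean of at least 1 CPM, and the 3 genes most like FOS, JUN and EGR1. A gene chosen by this rule is not reported here. HOOK2 is named for its overlap with JUNB, and CD3D, HBB, HBA1, EGR3 and EGR4 for being low. Positions come from GENCODE release 44, starts from RefSeq (GRCh38.p14) and sequences from the genome of the same build. The search of 500 bases before each start was added after the shorter RefSeq windows had been searched.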

Additional observations from a re-analysis of the deposited data

How the results depend on the processing

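EGR1, JUNB and FOSL2 kept their direction and their call under all 16 alternative fits, ATF3 was called under none, and the number of genes called stayed between 10176 (DESeq2) and 12099. The count of members called higher was 4 or 5 throughout, and 0 with an absolute log2 fold change above 1. The count called lower was 1 with upper-quartile normalization, without a filter and with the block by title number, 2 in the 4 samples C1, C4, N1 and N2, and 0 to 1 with each sample left out. Without a filter FOS was at 0.83 (adjusted p = 0.108, edgeR here and below) and JUND at -0.16 (0.0421). With upper-quartile normalization JUN was at 0.23 (0.0512) and JUND at -0.22 (0.0324). In the 4 samples FOSB was at -0.73, FOSL1 at 0.53, JUN at 0.20 and JUND at -0.19. With each sample left out in turn the ranges were 0.64 to 1.04 for FOS, -0.0069 to 0.53 for FOSL1 (a reversal of sign without the first scrambled sample), 0.20 to 0.35 for JUN, -0.25 to -0.11 for JUND, -0.65 to -0.26 for FOSB and -0.27 to -0.083 for ATF3. The causes were not tested. The labels do not say whether the replicate numbers pair the samples. Deviations of same-numbered samples correlated at 0.0563, -0.0862 and -0.0446, and at 0.0563, 0.145 and 0.0267 by the numbers in the titles. With so few samples per group these values cannot decide whether the samples are paired. With the label number as a replicate block 10983 genes were called, and the 5 members called higher stayed 5. With the title number as a block, C4 set with N2, 12099 genes were called, beside 11486 without a block. FOS was then at 0.80 (0.0737) and JUND at -0.17 (0.0118). Of 352 counts over the gene lists 350 stayed within 1.5 times. Upper-quartile normalization moved the median of all genes by -0.057 on the log2 scale. Depth limits FOSB and EGR2, with fewer than 50 counts in every sample.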
